A study of Mus musculus with 2 samples.

Results

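The matrix metalloproteinases (MMPs) Mmp2, Mmp9, Mmp11, Mmp13, Mmp14 and Mmp16 and the tissue inhibitors of metalloproteinases Timp1, Timp2, Timp3 and Timp4 were followed through the cell types of growing mouse long bone. The members are given by gene name, with no threshold on their values, and all 10 were listed in both tables, which together held 28380 genes. Mmp9, Mmp13, Mmp14 and Mmp11 were highest in septoclasts in both libraries, with Mmp9 at 26468 counts per 1000000 UMIs (CPM) in Control septoclasts and 24720.0 CPM in Dach1OE septoclasts, against 337 and 382 CPM in the other bone stroma. When cells were classed by the majority of their cluster, no cluster was of septoclasts, and these MMPs were highest in other classes. Over pooled cell classes, Mmp2 and Timp2 were highest in fibroblasts, Mmp16 in stroma and Timp4 in mural cells in both libraries. Timp3 was highest in endothelial (Control) or mural cells (Dach1OE), an order that changed with the processing.

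Single-cell RNA sequencing (scRNA-seq) on BD Rhapsody Express covered 2 libraries of non-haematopoietic cells from Femur and Tibia of C57BL/6 mice at postnatal day 30, with male and female animals pooled. Bones had their epiphyses removed before collagenase digestion and crushing, and blood cells were depleted by lineage antibodies and by CD45 and CD117 microbeads. The Control library had the genotype Dach1OE +/f, an allele for overexpression of the transcription factor DACH1, and no Cre. The Dach1OE library carried the same allele with Apj CreERT2, a tamoxifen-inducible Cre driven by the apelin receptor gene (Aplnr), which is active in capillary endothelial cells (ECs). Both groups received Tamoxifen. Each group was 1 library pooled from 2 mice, so no test between the groups was possible. Intervals cover counting error only, not the difference between animals or the spread between cells. Whether a difference came from the genotype, the animals, the dissection or the library cannot be told apart.

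MMPs are zinc-dependent endopeptidases that cut collagens and other matrix proteins, and are made as zymogens whose prodomain must be removed. Mmp2 and Mmp9 are the gelatinases, which cut denatured collagen and basement membrane collagen. Mmp13 is the main interstitial collagenase of rodents, Mmp11 (stromelysin-3) is activated inside the cell by furin, and Mmp14 and Mmp16 are membrane-type MMPs held at the cell surface. TIMPs bind the active site of MMPs one to one. TIMP3 is held in the matrix and also blocks ADAM proteases, and TIMP2 takes part with MMP14 in the activation of pro-MMP2. In growing bone, hypertrophic cartilage is removed at the chondro-osseous junction by vessels, osteoclasts and septoclasts, which are perivascular cells of the metaphysis rich in proteases.

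Cells with 500 to 6000 genes and under 25% mitochondrial UMIs were kept (UMI, unique molecular identifier, 1 per captured transcript), which left 26466 of 28720 Control cells and 29317 of 32028 Dach1OE cells, with a median of 3793.5 and 4055 UMIs. The libraries shared 1049 cell barcodes. Cells were assigned to classes by marker genes, none of which was an MMP or a TIMP, and 9.50% and 10.9% of cells were assigned to no class. Dach1 was at 4.82 CPM in Control ECs and 205 CPM in Dach1OE ECs, in the direction of the labels. Septoclasts numbered 87 and 168 cells, or 0.329% and 0.573% of kept cells. They were stromal cells outside the diaphyseal subtype with at least 5 Fabp5 UMIs per 10000 and at least 2 of Ctsb, Dpp4, Pdgfrb and Cspg4. Just inside the Fabp5 limit (5 to under 10 per 10000) lay 41 and 83 of them, and 126 and 186 other stromal cells that were not diaphyseal lay just outside (2.5 to under 5). Throughout, levels are CPM, a gene's UMIs scaled to the UMI total of the class in 1 library, Control first and Dach1OE second, with 95% Poisson intervals in brackets. CPM was compared between cell types for the same gene, not between genes.

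Of the genes the gate itself used, which therefore give no independent check of identity, Fabp5 was at 2315 and 2519 CPM and Ctsb at 1554 and 1168 CPM in septoclasts, but Ctsb was at 2138 and 1130 CPM in ECs and so did not set septoclasts apart. Pdgfrb was detected in 77.0% and 78.6% and Cspg4 in 69.0% and 72.0% of septoclasts, whereas Dpp4, the remaining gate marker, had 3 and 1 UMIs and so did not mark these cells. Mmp9 is also abundant in osteoclasts and neutrophils, so the markers of both were read in the same cells. Those lists, the macrophage list and Ptprc also scored the haematopoietic class, and the mural list the mural class. A septoclast had to score higher for stroma than for these classes. Low values of these markers were thus partly set by the gate and give no independent check. The 6 neutrophil markers were at 0 in septoclasts of both libraries, Ptprc (CD45) had 0 and 1 UMIs, and the macrophage list had 0 CPM with 6 of 6 markers at 0 in Control and 2.5 CPM with 4 of 6 at 0 in Dach1OE. The osteoclast list summed to 246 and 203 CPM in septoclasts, of which Ctsk alone gave 244 and 200 CPM, while 4 of its 6 genes were at 0 and Acp5 had 0 and 2 UMIs. Pericyte transcripts were present: an Rgs5 UMI was found in 23.0% and 37.5% of septoclasts, and the mural marker list summed to 2397 and 5227 CPM with 1 of 7 markers at 0 in each library.

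The 250 bases before the start of Mmp13 (chr9:7272264-7272513, plus strand, GRCm38.p6) and of Mmp14 (chr14:54431348-54431597, plus strand) are printed as those of the collagenase and the membrane-type MMP that were highest in septoclasts. The sequences are from RefSeq, 5′ to 3′, and capitals mark an AP-1 match (TGANTCA) or a Runx match (TGTGGT), searched on both strands.
Mmp13: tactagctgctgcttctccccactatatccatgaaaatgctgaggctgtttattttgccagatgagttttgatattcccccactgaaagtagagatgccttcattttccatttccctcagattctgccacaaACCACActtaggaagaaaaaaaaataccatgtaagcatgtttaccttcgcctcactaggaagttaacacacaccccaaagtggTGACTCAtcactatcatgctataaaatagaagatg
Mmp14: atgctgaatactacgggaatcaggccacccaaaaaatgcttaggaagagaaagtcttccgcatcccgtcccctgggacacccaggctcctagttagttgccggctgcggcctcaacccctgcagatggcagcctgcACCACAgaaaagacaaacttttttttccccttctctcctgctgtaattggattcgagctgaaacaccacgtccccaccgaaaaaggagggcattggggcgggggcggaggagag
The Mmp13 window held 1 AP-1 match starting 35 bases and 1 Runx match starting 118 bases before the start, and TATAAA starting 16 bases before it. Mmp14 had 1 Runx match starting 114 bases before the start, with no AP-1 or TATAAA letters in its window. AP-1 letters were found in 7.81%, Runx letters in 16.8% and TATAAA in 13.6% of 32851 RefSeq windows of 300 bases, counted from 250 before to 50 after a start. A match describes letters, not a bound site. The window of Mmp11, also highest in septoclasts, held none of these 3 motifs. Windows were found for 7 of the 10 genes. Mmp13 was the only one of these 7 with AP-1 letters.

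In the gene annotation (GENCODE vM21, GRCm38), the gelatinase genes lie at chr8:92827291-92853420 (Mmp2, plus strand) and chr2:164940780-164955850 (Mmp9, plus strand). Mmp13 lies at chr9:7272514-7283331 (plus strand), Mmp11 at chr10:75923222-75936496 (minus strand), Mmp14 at chr14:54431612-54445364 (plus strand) and Mmp16 at chr4:17852893-18119145 (plus strand). The inhibitors lie at chrX:20870166-20874735 (Timp1, plus strand), chr11:118301069-118355740 (Timp2, minus strand), chr10:86300372-86349506 (Timp3, plus strand) and chr6:115241892-115252205 (Timp4, minus strand). Timp1, Timp3 and Timp4 sit inside or across the synapsin genes Syn1, Syn3 and Syn2 on the opposite strand, Mmp11 overlaps Chchd10 on the opposite strand, and Timp2 overlaps Cep295nl on its own strand. The strand setting of the counting was not given in the sources used here, so the split of reads between these overlapping pairs is uncertain.

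Mmp9, the gelatinase best known from osteoclasts, was at 26468 CPM in Control (25982 to 26961) and 24720.0 CPM in Dach1OE (24377 to 25067) in septoclasts. The next class was stroma, at 337 CPM in Control (330.5 to 344) and 382 CPM in Dach1OE (375 to 389). Within stroma, cells of no named subtype were at 3178 and 3789 CPM, metaphyseal cells at 803 and 1269 CPM and diaphyseal cells at 58.8 and 157 CPM. Pericytes, a mural subtype, were at 407 and 501 CPM, above stroma as a whole. Septoclast and stromal counting intervals were far apart in each library, though they leave out the wide spread between cells. In ECs it was at 9.79 and 27.6 CPM. The 87 and 168 septoclasts held 42.3% of all Control and 44.4% of all Dach1OE Mmp9 UMIs in kept cells, and stroma held a further 37.4% and 25.7%. After each cell was thinned to 1000 UMIs, an Mmp9 UMI was found in 62.1% (51.0% to 72.3%) in Control and 58.3% (50.5% to 65.9%) in Dach1OE of septoclasts, against 0.928% and 1.42% of haematopoietic cells, which give the level of free RNA and of true haematopoietic expression together. Without thinning the septoclast shares were 62.1% and 62.5%.

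**Figure D1:**
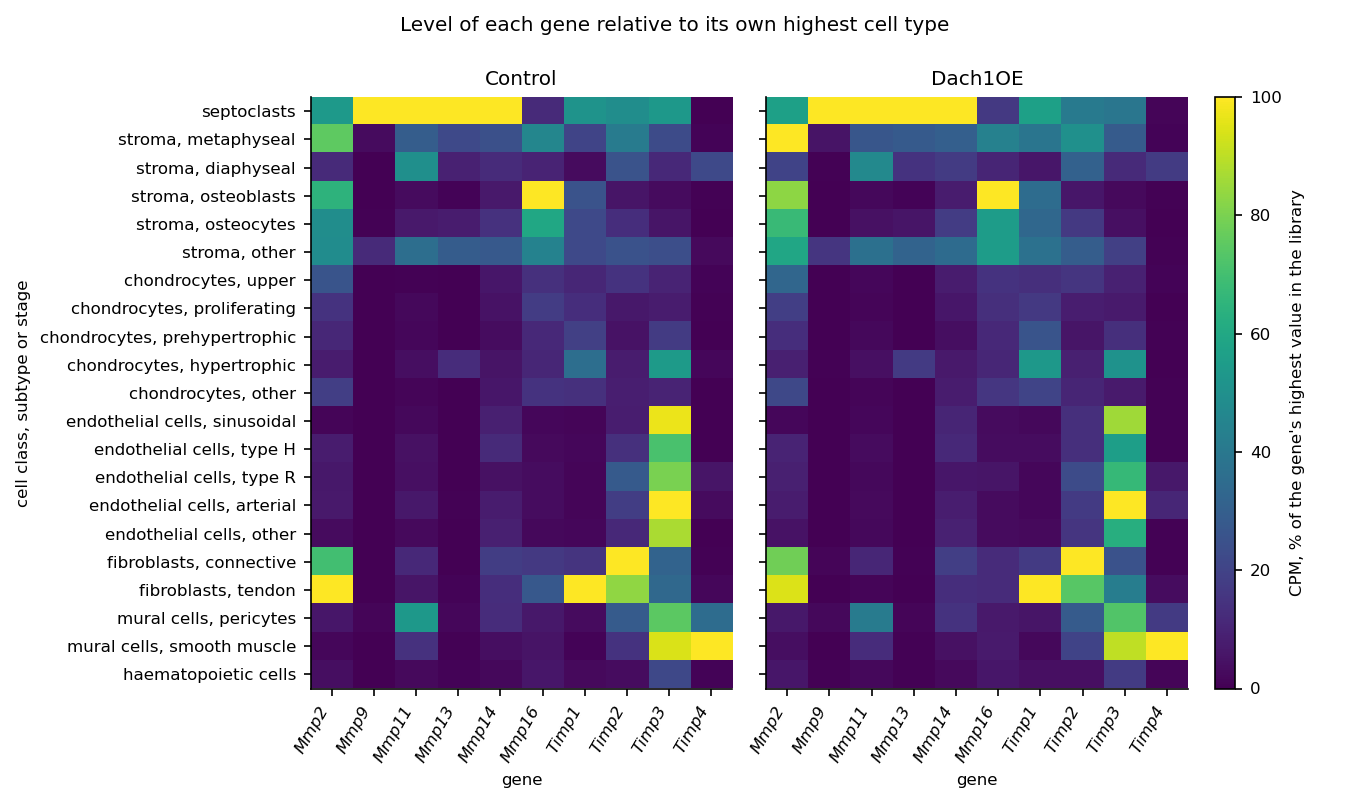
Heatmaps of the level of each gene (columns) in each cell class or subtype (rows), 1 panel per library, coloured as percent of that gene's highest CPM in the library. Mmp9, Mmp11, Mmp13 and Mmp14 reach their highest CPM in septoclasts in both libraries, Timp3 in arterial endothelial cells and Timp4 in smooth muscle.

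Mmp13, the collagenase, was at 21894 CPM in Control (21452 to 22343) and 14558 CPM in Dach1OE (14294 to 14825) in septoclasts. In metaphyseal stroma it was at 4842 CPM in Control (4778 to 4906) and 4099 CPM in Dach1OE (4034 to 4164), in diaphyseal (Lepr and Adipoq) stroma at 2004 and 2115 CPM and in osteoblasts at 238 and 138 CPM. A smaller share of Mmp13 than of Mmp9 lay in septoclasts, which held 10.5% and 15.3% of its UMIs, stroma 63.5% and 46.5%, and chondrocytes 13.3% and 23.5%. With cells thinned, a UMI of Mmp13 was found in 70.1% and 65.5% of septoclasts, 39.2% and 29.3% of stromal cells and 4.41% and 3.15% of haematopoietic cells. Without thinning these shares were 74.7% and 70.8%, 50.7% and 38.3% and 9% and 7.21%.

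Mmp14, the membrane-type collagenase that also activates pro-MMP2, was detected in every class. It was at 5256 CPM in Control (5041 to 5478) and 4447 CPM in Dach1OE (4302 to 4595) in septoclasts, followed by stroma of no named subtype, metaphyseal stroma and connective fibroblasts at 1469 and 1558, 1281 and 1344 and 954 and 828 CPM. ECs had 477 and 428 CPM, with type H capillary ECs of the metaphysis at 618 and 512 CPM and type R ECs at 235 and 261 CPM. Thinned, 85.1% and 76.2% of septoclasts and 36.3% and 33.2% of ECs had a UMI of Mmp14, against 9.05% and 8.52% of haematopoietic cells, and unthinned the septoclast shares were 94.3% and 92.9%.

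Mmp11 was a low transcript, highest in septoclasts. They had 204 CPM in Control (163 to 251) and 221 CPM in Dach1OE (189.9 to 256), from 87 and 177 UMIs. Pericytes were at 109 and 92.3 CPM and diaphyseal stroma at 102 and 104 CPM, and the intervals of these neighbours overlapped in both libraries. Stroma of no named subtype had 73.7 and 81.5 CPM, overlapping pericytes in Dach1OE, and metaphyseal stroma 60 and 59.1 CPM. Osteoblasts were the lowest stromal subtype, at 6.34 and 4.65 CPM, where haematopoietic cells had 4.84 and 4.83 CPM.

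Mmp2, the constitutive gelatinase of connective tissue, was highest in fibroblasts at 1231 CPM in Control (1192 to 1272) and 958 CPM in Dach1OE (920.2 to 996). Septoclasts were at 804 and 649 CPM, under metaphyseal stroma at 1112 and 1141 CPM. Tendon fibroblasts led in Control at 1481 CPM, whereas in Dach1OE their interval overlapped that of metaphyseal stroma, with 1082 CPM. Diaphyseal stroma was the lowest stromal subtype, at 176 and 229 CPM, and ECs had 50.9 and 69.9 CPM. Stroma held 54.0% and 55.4% of its UMIs and septoclasts 0.883% and 1.13%. Thinned, 58.4% and 45.0% of fibroblasts and 37.8% and 47.6% of stromal cells had a UMI of Mmp2, against 3.54% and 4.43% of haematopoietic cells.

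Mmp16, the other membrane-type MMP, had an osteoblast pattern. It was at 139.7 CPM in Control (133 to 147) and 159 CPM in Dach1OE (153 to 165) in osteoblasts, at 83.3 and 88.0 CPM in osteocytes and at 63.9 and 70.0 CPM in metaphyseal stroma. In septoclasts only 7 and 21 UMIs were counted, which is 16.4 CPM in Control (6.60 to 33.8) and 26.3 CPM in Dach1OE (16.3 to 40.1). At 1000 UMIs per cell it was found in 0 of 87 Control septoclasts, which allows a share of up to 4.15% of cells with a UMI at this depth, and in 2.38% of Dach1OE septoclasts. Unthinned, 6.90% and 6.55% of septoclasts had one, so the thinned share does not limit the cells that express it. Stroma held 63.9% and 65.8% of its UMIs.

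Mmp9 and Mmp13 came from the same septoclasts. Without thinning, 62.1% and 60.7% of septoclasts had a UMI of both, and each of these cells also had Mmp14. Mmp9 without Mmp13 was seen in 0% of Control and 1.79% of Dach1OE septoclasts, Mmp13 without Mmp9 in 12.6% and 10.1%, and neither in 25.3% and 27.4%. In stroma of no named subtype, which had the next highest Mmp9 and Mmp13 levels, 25.7% and 25.4% of cells had both. In metaphyseal stroma 15.7% and 16.5% of cells had both and 48.1% and 48.2% had Mmp13 alone. The level varied widely between septoclasts. Mmp9 had a median of 163 and 76.8 and a 90th percentile of 636 and 668 UMIs per 10000, and 12 and 22 cells held 50% of the septoclast Mmp9 UMIs. Mmp13 had a median of 113 and 50.3 UMIs per 10000, with 50% of its UMIs in 11 and 18 cells.

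Levels also followed Fabp5 through metaphyseal stroma, stroma of no named subtype and septoclasts. Cells were binned by Fabp5 per 10000 UMIs, from no Fabp5 (1330 and 1116 cells) to the highest bin (37 and 54 cells). From the lowest to the highest bin, Mmp9 went from 973 and 1686 CPM to 39166 and 42097 CPM. Mmp13 went from 4578 and 4091 to 31400 and 22369 CPM, and Mmp14 from 1259 and 1326 to 7331 and 6502 CPM. Each was higher in every bin than in the bin before, in both libraries. Timp1 also went up along the bins, from 187 and 230 to 513 and 442 CPM, and Timp3 from 315 and 388 to 914 and 713 CPM. Mmp2 was lower in the highest bin than with no Fabp5, from 1042 and 1003 to 491 and 591 CPM, though in Dach1OE the second bin was at 1031 CPM, and Mmp16 went from 68.0 and 83.1 to 5.64 and 23.6 CPM. Fabp5 and the MMPs were read in the same cells, so depth and cell mixtures are shared by both axes.

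**Figure D2:**
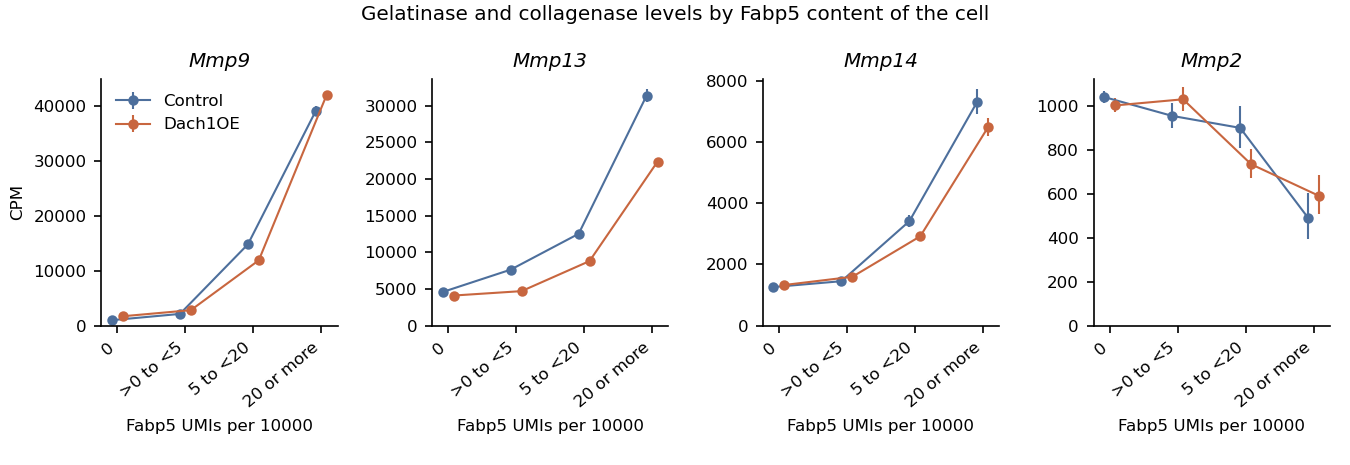
CPM of Mmp9, Mmp13, Mmp14 and Mmp2 (vertical axes) in metaphyseal and unnamed stroma and septoclasts binned by Fabp5 UMIs per 10000 (horizontal axis), 1 line per library, with 95% Poisson bars. Mmp9 goes from 973 and 1686 CPM in cells with no Fabp5 to 39166 and 42097 CPM in the highest bin, while Mmp2 goes from 1042 and 1003 to 491 and 591 CPM.

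Septoclasts with and without Rgs5, the pericyte marker, are set side by side, without a test. Without an Rgs5 UMI, Mmp13 was at 24444 and 16972 CPM, and with one at 7471 and 9453 CPM. Mmp9 was at 27707 and 27348 CPM without Rgs5 and at 19465 and 19164 CPM with it. Mmp11 went the other way, at 171 and 188 CPM without and 390 and 292 CPM with Rgs5. Timp1 was at 585 and 473 CPM without Rgs5 and at 31.2 and 167 CPM with it. The part of pericytes or mixed droplets in the Rgs5-positive septoclasts was not tested. Doublet calling by Scrublet marked 2 of 87 and 9 of 168 septoclasts.

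In the growth plate, Mmp13 was high in hypertrophic chondrocytes, the last stage before cartilage is removed. It was at 17.8 and 20.6 CPM in upper, 16.5 and 13.0 CPM in proliferating and 13.9 and 23.1 CPM in prehypertrophic chondrocytes, all under the haematopoietic level of 182 and 108 CPM. Hypertrophic chondrocytes were those whose highest stage score was that of Col10a1, Spp1, Ibsp and Vegfa. A Col10a1 limit of 20 UMIs per 10000 held only for entry to the chondrocyte class by these markers, not for the stage. In hypertrophic chondrocytes Mmp13 was at 2783 CPM in Control (2732 to 2835) and 2447 CPM in Dach1OE (2410.0 to 2484). Timp3 was also highest in the hypertrophic stage, with 142 and 139 CPM in upper, 108 and 111 CPM in proliferating, 243 and 203 CPM in prehypertrophic and 768 and 773 CPM in hypertrophic chondrocytes. Timp1 was at 104 and 89.1 CPM in upper and 353 and 349.9 CPM in hypertrophic chondrocytes. Mmp2 ran downward, from 387 and 377 CPM in upper, through 219.7 and 213 and 165 and 148 CPM, to 115 and 102 CPM in hypertrophic chondrocytes. Mmp14 was at 315 and 342 CPM in upper, 254 and 268 CPM in proliferating, 174 and 172 CPM in prehypertrophic and 281 and 295 CPM in hypertrophic chondrocytes, so that of these 4 stages the upper was the highest and the prehypertrophic the lowest. Mmp9 was sparse, with 40.3 and 142 CPM in hypertrophic chondrocytes.

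Within hypertrophic chondrocytes, Mmp13 followed Spp1 (osteopontin), a transcript of the latest hypertrophic cells. In the 172 and 273 hypertrophic cells with no Spp1 UMI, Mmp13 was at 54.1 and 25 CPM, and in the next bins at 346 and 542, then 2011 and 2880 CPM. In the 84 and 135 cells of the highest Spp1 bin it was at 16154 and 12393 CPM, and the share of cells with a UMI went from 13.4% and 10.3% to 91.7% and 84.4%. Mmp14 went from 119 and 121 to 833 and 702 CPM and Timp2 from 116 and 116 to 612 and 589 CPM over the same bins, whereas Timp3 went from 962 and 1037 to 660 and 414 CPM. Median UMIs per cell were lower in the highest bin (6610 and 6742) than in the lowest (9716.5 and 9405). Spp1 was also a marker of the hypertrophic gate and is expressed by osteoblasts. A part of mixed cells in the highest bin was not tested.

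**Figure D3:**
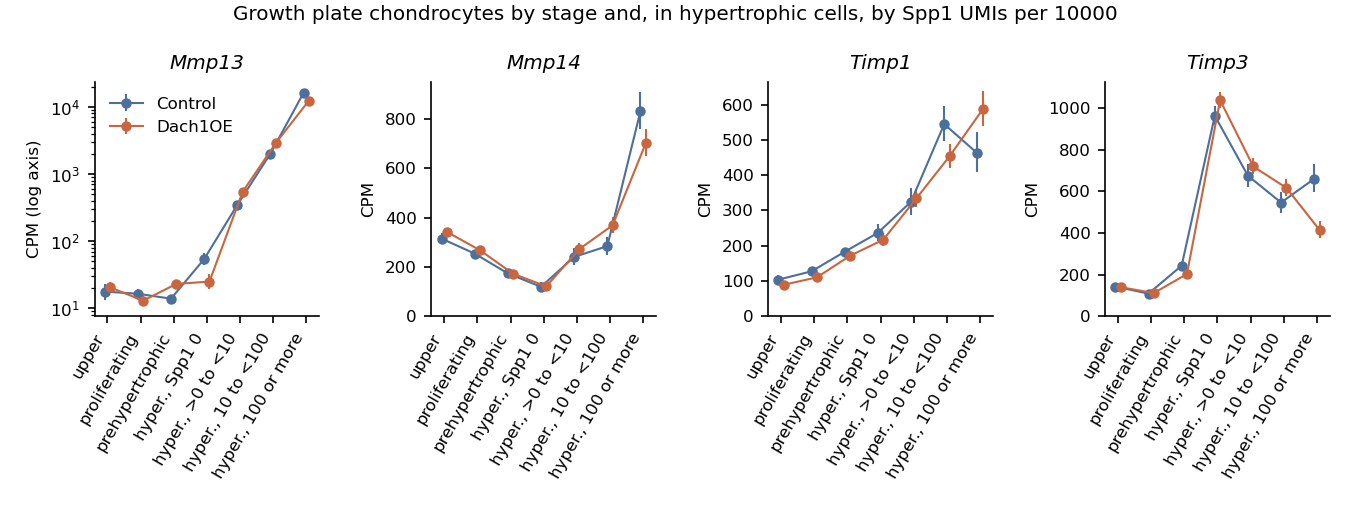
CPM of Mmp13 (log axis), Mmp14, Timp1 and Timp3 in chondrocyte stages and then in hypertrophic chondrocytes binned by Spp1 (horizontal axis), 1 line per library, with 95% Poisson bars. Mmp13 lies between 13.0 and 23.1 CPM in the 3 earlier stages and reaches 16154 and 12393 CPM in the highest Spp1 bin.

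The inhibitors are given next. Timp3 was highest in vessel cells. ECs had 1257 CPM in Control (1244 to 1271) and 1113 CPM in Dach1OE (1100.2 to 1125), and mural cells 1195 CPM in Control (1159 to 1230.5) and 1226 CPM in Dach1OE (1198 to 1253). Which of these classes led changed with the processing. With cells classed by cluster majority, mural cells led in Control at 1312 CPM. Under 10% mitochondrial UMIs, ECs led in Dach1OE at 1123 CPM. Arterial ECs (1410.4 and 1513 CPM), sinusoidal ECs (1367 and 1295 CPM) and smooth muscle (1328 and 1371 CPM) headed the order in both libraries, and in Control their intervals overlapped from each to the next. ECs held 51.7% and 44.5% of Timp3 UMIs. Thinned to 1000 UMIs, 65.8% and 58.5% of ECs had a UMI of Timp3 against 16.7% and 15.0% of haematopoietic cells, and unthinned the EC shares were 88.5% and 83.0%. Osteoblasts, at 39.7 and 41.2 CPM, were the low end.

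Timp2 was highest in fibroblasts, at 2836 CPM in Control (2776 to 2897) and 2539 CPM in Dach1OE (2478 to 2601), with connective fibroblasts at 3064 and 2783 CPM and tendon fibroblasts at 2554 and 2060.1 CPM. Septoclasts followed as a class at 1502 and 1139 CPM and metaphyseal stroma was at 1279.9 and 1391 CPM, so that the order of the pair differed between the libraries. Thinned, 85.5% and 83.9% of fibroblasts had a UMI of Timp2 against 8.57% and 8.89% of haematopoietic cells. Mmp2 and Timp2 thus shared their highest class, while Mmp14 did not.

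Timp1 was led by tendon fibroblasts, at 973 and 658 CPM, ahead of septoclasts at 501 and 375 CPM and hypertrophic chondrocytes at 353 and 349.9 CPM. The intervals of septoclasts and hypertrophic chondrocytes overlapped in Dach1OE. Osteoblasts had 248 and 232 CPM and diaphyseal stroma 29.9 and 39.9 CPM. Chondrocytes, with a median of 10716 and 10043 UMIs per cell, held 47.3% and 50.6% of Timp1 UMIs.

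Timp4 was a transcript of mural cells and diaphyseal stroma. Smooth muscle had 202 CPM in Control (182 to 224) and 173 CPM in Dach1OE (158 to 188), pericytes 71.3 and 29.0 CPM and diaphyseal stroma 44.8 and 30.1 CPM. Mural cells held 46.4% and 57.5% of its UMIs and diaphyseal stroma 37.6% and 11.1%. The intervals of pericytes and diaphyseal stroma overlapped in Dach1OE. In septoclasts 0 UMIs were counted in Control and 2 in Dach1OE, and at 1000 UMIs per cell 0 of 87 Control septoclasts had one, which allows a share of up to 4.15% of cells with a UMI at this depth and sets no limit on cells that express it.

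The ratio of MMP to TIMP transcripts was highest in septoclasts. There, 19.8 UMIs of the 6 MMPs (18.7 to 21) were counted per UMI of the 4 TIMPs in Control and 21.1 (20.1 to 22.2) in Dach1OE. Stroma of no named subtype had 8.92 and 8.02, stroma as a whole 4.17 and 3.95, and hypertrophic chondrocytes 2.40 and 2.20 per TIMP UMI. Lower ratios were found in fibroblasts (0.598 and 0.621), ECs (0.361 and 0.368), smooth muscle (0.223 and 0.188) and type R ECs (0.178 and 0.263). The ratio is read between classes and libraries, not as a level of MMPs against TIMPs. MMPs outside the 6 are left out of it. In septoclasts Mmp9 gave 48.4% and 55.4% of MMP UMIs and Mmp13 40.1% and 32.6%, and Timp2 gave 54.5% and 53.9% of TIMP UMIs. The septoclast ratio was 4.75 and 5.35 times that of stroma. These are ratios of transcripts and do not measure active enzyme.

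**Figure D4:**
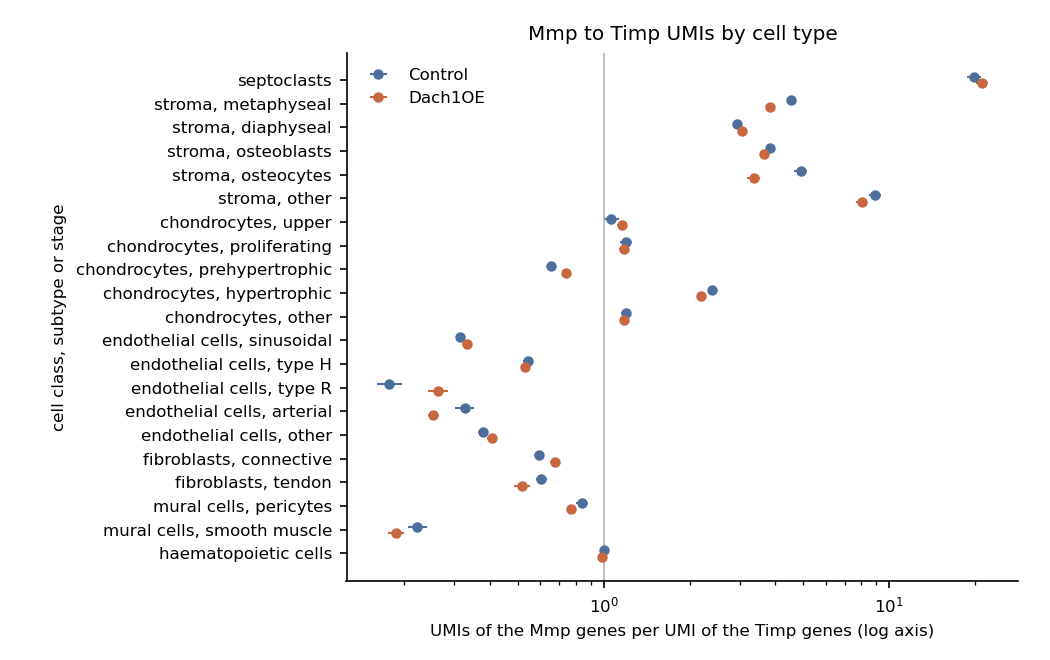
UMIs of the 6 MMPs per UMI of the 4 TIMPs (log axis) in each class, with 95% counting intervals, 1 colour per library. Septoclasts stand highest at 19.8 and 21.1, and ECs at 0.361 and 0.368 and smooth muscle at 0.223 and 0.188 lie far lower.

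Between the libraries, the question was whether Dach1 overexpression in Aplnr-expressing capillaries went with other MMP and TIMP levels in any class. A gene was counted as past the fold when its CPM differed by at least 1.5-fold, with at least 20 UMIs in the class over both libraries. Of the 10 genes, 3 passed it in ECs, where 18.6% of 15477 genes did, and 3 in stroma, where 17.6% of 16497 genes did. In septoclasts 2 of 9 passed (23% of 7533 genes), in chondrocytes 1 of 10 (11.6% of 17389 genes) and in fibroblasts 3 of 9 (14.6% of 11456 genes). Timp4 had too few UMIs to be counted in septoclasts and fibroblasts. These counts are descriptions and were not tested against the background. The same comparison was made in cells with an Xist UMI and no Y-linked UMI and in cells with a UMI of at least 1 of 4 Y-linked genes and no Xist UMI, here called Xist and Y cells. These stand for the pooled females and males, and are not replicates of a group. Control had 9993 Xist and 5887 Y cells, and Dach1OE 9388 and 7402. Septoclasts had 38 Xist and 14 Y cells in Control, and 45 and 55 in Dach1OE. Ratios over all cells therefore mix library with sex makeup, and the part of sex was not tested.

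**Figure D5:**
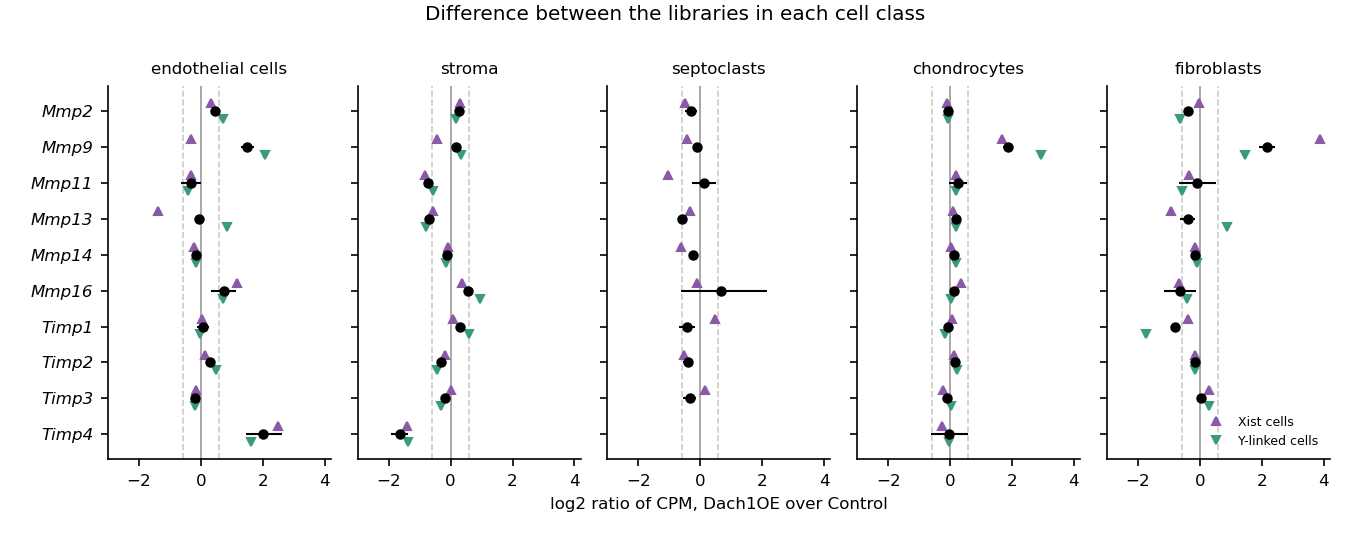
Log2 ratio of CPM, Dach1OE over Control (horizontal axis), for each gene in each of 5 classes. Black dots with 95% counting intervals are all cells, triangles are Xist and Y cells, and dashed lines mark 1.5-fold. Septoclasts have no Y triangles, as Control had 14 such cells, under the minimum of 20. Septoclast Mmp13 lies at -0.59 and stromal Timp4 at -1.65, and for EC Mmp9 the Xist and Y triangles lie on opposite sides of 0, at -0.31 and 2.06.

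In ECs, the class in which the transgene was driven, Timp4, Mmp9 and Mmp16 were higher in Dach1OE, all from low levels. Haematopoietic cells had 8.61 and 9.52 CPM of Mmp16 and 72.9 and 97.8 CPM of Mmp9, above ECs in both libraries. These levels can hold both free RNA and true haematopoietic expression, and whether the EC values are expression was not tested. For Timp4, haematopoietic cells had 2.13 and 2.48 CPM, above Control ECs and under Dach1OE ECs. Timp4 was at 1.19 and 4.79 CPM, from 32 and 129 UMIs, a log2 ratio of 2.01 (1.44 to 2.62), with 2.49 in Xist and 1.63 in Y cells. Of the Dach1OE UMIs, 91 lay in 68 arterial ECs, against 8 in 5 Control arterial ECs. Arterial ECs made up 1332 Dach1OE and 419 Control ECs, and Timp4 within them was at 5.55 and 18.7 CPM. With EC subtypes given equal weight the Timp4 ratio was 0.84. Mmp16 was at 3.04 and 5.05 CPM, a log2 ratio of 0.73 (0.33 to 1.14). Mmp9 was at 9.79 and 27.6 CPM, a log2 ratio of 1.5 (1.29 to 1.70), but 6 Control and 2 Dach1OE cells held 50% of these UMIs, 1 Dach1OE cell alone having 336 of 744. Without the cells that Scrublet marked as doublets the Mmp9 ratio was 0.12, with a stricter gate 0.25, and it was -0.31 in Xist and 2.06 in Y cells. The EC genes of high level stayed inside the fold: Timp3 had a log2 ratio of -0.18 (-0.20 to -0.15), Mmp14 of -0.15 (-0.19 to -0.12) and Timp2 of 0.28 (0.24 to 0.32). Timp2 in sinusoidal ECs was past it, at 241 and 371 CPM.

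In stroma, Timp4, Mmp11 and Mmp13 were lower in Dach1OE. Timp4 was at 14.8 and 4.74 CPM, a log2 ratio of -1.65 (-1.93 to -1.37), Mmp11 at 48.0 and 28.7 CPM (log2 ratio -0.74, -0.86 to -0.62) and Mmp13 at 1913 and 1182 CPM (-0.69, -0.71 to -0.68). Xist and Y cells shared these directions. The makeup of stroma moved with these values: diaphyseal cells, where Timp4 and Mmp11 are highest among stroma outside septoclasts, numbered 2851 in Control and 1167 in Dach1OE, and osteoblasts, where they are low, 1597 and 2333. With each stromal subtype given equal weight, the log2 ratio was -0.65 for Timp4, 0.02 for Mmp11 and -0.36 for Mmp13. Within diaphyseal stroma Mmp11 was at 102 and 104 CPM and Mmp13 at 2004 and 2115 CPM. Mmp13 was past the fold within osteoblasts (-0.78, -0.86 to -0.71) and osteocytes (-1.04, -1.12 to -0.97, with 50% of its osteocyte UMIs in 13 and 8 cells), and likewise in mural cells (-1.10, -1.24 to -0.97) and haematopoietic cells (-0.76, -0.83 to -0.68), classes where its level is low. The part of free RNA in these low classes was not tested. Mmp9 stayed inside the fold over stroma (0.18, 0.14 to 0.22) but was past it in opposite directions within subtypes. It was at 803 and 1269 CPM in metaphyseal and 58.8 and 157 CPM in diaphyseal stroma, against 67.5 and 13.5 CPM in osteoblasts and 145 and 18.1 CPM in osteocytes, where 1 Control cell held over 50% of the UMIs in each. Mmp16, at 80.7 and 119 CPM, lay just inside the fold with a log2 ratio of 0.56 (0.49 to 0.64), and within osteoblasts it was at 139.7 and 159 CPM. The median log2 ratio over all 16497 stromal genes was -0.20, so that relative to it Timp4 was at -1.44, Mmp11 at -0.54, Mmp13 at -0.49 and Mmp16 at 0.77. With this centring Mmp11 and Mmp13 lay inside the fold and Mmp16 lay past it.

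In septoclasts, Mmp13 was lower in Dach1OE and just past the fold, with a log2 ratio of -0.59 (-0.63 to -0.55), and -0.34 in Xist cells. Control had 14 Y septoclasts, under the minimum of 20 cells for a separate value. Leaving out the Rgs5-positive septoclasts gave -0.53, inside the fold. The Rgs5-positive septoclasts went the other way, at 7471 and 9453 CPM of Mmp13, while their share was 23.0% and 37.5% and Rgs5 stood at 1875 and 4282 CPM. The part of these cells in the difference was not tested. Mmp16 had a log2 ratio of 0.68 (-0.61 to 2.16) from 7 and 21 UMIs, an interval that spans 0. Mmp9 (-0.10, -0.13 to -0.07), Mmp11 (0.12, -0.26 to 0.51), Mmp14 (-0.24, -0.32 to -0.16), Mmp2 (-0.31, -0.51 to -0.11), Timp1 (-0.42, -0.68 to -0.16), Timp2 (-0.40, -0.55 to -0.25) and Timp3 (-0.34, -0.55 to -0.13) stayed inside it. A few cells weigh heavily in these sums, as 12 and 22 septoclasts held 50% of the Mmp9 UMIs. The median septoclast had 163 and 76.8 UMIs per 10000 of Mmp9 and 113 and 50.3 of Mmp13, lower in Dach1OE for both. The summed Mmp9 ratio, though inside the fold, does not describe the median cell.

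In chondrocytes, 9 of the 10 genes lay inside the fold. Mmp9 was past it at 8.03 and 29.4 CPM, a log2 ratio of 1.87 (1.71 to 2.04), but 7 Control and 4 Dach1OE cells held 50% of its UMIs, and with the stricter gate the ratio was 1.27. Hypertrophic Mmp13 was at 2783 and 2447 CPM, inside the fold. Fibroblasts had lower Timp1 in Dach1OE, at 516 and 296 CPM with a log2 ratio of -0.80 (-0.93 to -0.67), and -0.39 in Xist and -1.73 in Y cells. Within tendon fibroblasts, the main source, Timp1 was at 973 and 658 CPM, and tendon cells numbered 258 and 181. Connective fibroblasts had 146 and 112 CPM of Timp1, so that it lay inside the fold within each subtype. Over all fibroblasts, Mmp16 was at 30.1 and 19.4 CPM (-0.64, -1.17 to -0.12). Mmp9 in fibroblasts, at 50.5 and 227 CPM (2.17, 1.91 to 2.44), rested on 1 Control and 2 Dach1OE cells for 50% of its UMIs, and its log2 ratio was 7.07 without Scrublet doublets, 6.43 with the stricter gate and -2.37 without Rgs5-positive cells.

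Of 65 related genes (other MMPs, their inhibitors and regulators, and ADAM, ADAMTS and cathepsin proteases), 64 were in the tables. In ECs 51 had enough UMIs, of which 6 were higher and 10 lower by the fold (18.6% of all genes in either direction), with a median log2 ratio of -0.03 beside 0.03 over all genes. Lower were Adamts5, an aggrecanase, at 921 and 469 CPM, and the lysosomal protease Ctsb, at 2138 and 1130 CPM. Higher were Mmp15, a further membrane-type MMP, at 68.3 and 138 CPM, and Plat, tissue plasminogen activator, at 22.6 and 53.2 CPM. In stroma 1 was higher and 12 lower of 56 (17.6% of all genes), with a median of -0.26 beside -0.20 over all genes, and the lower ones included Mmp19 (20.2 and 9.38 CPM) and Mmp17 (18.3 and 9.31 CPM). Septoclasts had 3 higher and 3 lower of 31 (23% of all genes), with Adamts4 higher at 68.0 and 140 CPM. Both of the other MMPs with enough UMIs in septoclasts were lower, with a median log2 ratio of -1.78, and each was under the 100 UMIs asked of a named gene. Chondrocytes had 3 higher and 8 lower of 57 (11.6% of all genes), among them the aggrecanase gene Adamts5 at 26.4 and 15.9 CPM. Fibroblasts had 3 higher and 6 lower of 45 (14.6% of all genes), with the proteoglycan gene Spock3 at 40.3 and 15.1 CPM. Of the 58 related genes with at least 100 UMIs over all kept cells, 14 were highest in fibroblasts, 13 in septoclasts and 11 in ECs. Those of septoclasts included the protease inhibitor Serpine2, the serine protease Fap and the stromelysin Mmp10, but also Mmp20 at only 0.815 CPM over both libraries. The same shares over all genes were not counted, so these numbers show no enrichment in a class.

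The genes whose levels ran most like those of each MMP or TIMP over the 42 points (21 cell types in 2 libraries) were found by Pearson's r of log2(CPM + 1). The points share libraries, depth and marker genes, and r is a description. Nearest to Mmp9 were Sstr2 (0.88), Wdr72 (0.87) and Lgi1 (0.86), and nearest to Mmp13 were Cp (0.90), Serpine2 (0.90) and Spp1 (0.89). Mmp14 ran with Qsox1 (0.84), Fam149a (0.82) and Itgav (0.82), Mmp11 with Pdgfrb (0.93), Fhl2 (0.91) and Ccbe1 (0.89), Mmp2 with Bmp1 (0.90), Mrc2 (0.88) and Dcn (0.87), and Mmp16 with Farp2 (0.93), Creb3l1 (0.92) and Cadm1 (0.92). Among the inhibitors, Timp1 ran with Wipi1 (0.88), Serf1 (0.88) and Lum (0.87), Timp2 with Pkd2 (0.92), Kifap3 (0.90) and Ext1 (0.90), Timp3 with Clic4 (0.91) and Klf7 (0.90), and Timp4 with Tagln (0.84), Pdlim3 (0.84) and Des (0.83). Pdgfrb, Spp1, Tagln and Des were themselves used to assign cells. Between the 10 genes, r was 0.86 for Mmp9 and Mmp11, 0.85 for Mmp9 and Mmp13, 0.82 for Mmp2 and Timp1, and -0.75 for Mmp16 and Timp3.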

How the data were processed

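Single-cell RNA-seq was analysed from 2 libraries (1 Control, 1 Dach1OE, postnatal day 30). The deposited tables hold, per cell and gene, UMI counts that the authors obtained with the BD Rhapsody WTA Analysis Pipeline (1.11 per the file headers), with GENCODE M19 on GRCm38. RSEC-adjusted molecule counts were used, summing to 143986818 and 166999989 UMIs. Cells with 500 to 6000 genes and under 25% mitochondrial UMIs were scored by z-scored marker lists (minimum score 0.3, lead 0.2, at least 2 markers). For each class of a library, the UMIs of its cells were added up and scaled to CPM, with exact Poisson intervals. Log2 ratios have exact conditional binomial intervals, and shares have Clopper-Pearson intervals after thinning to 1000 UMIs per cell. All intervals are at 95% and cover counting error only. With 1 library per group no p-value was computed. Genes past 1.5-fold needed 20 UMIs. Scrublet marked 6.62% of Control and 6.74% of Dach1OE cells as doublets, which were kept in the values given and left out as an alternative. Python 3.11.15, numpy 2.4.6, scipy 1.17.1, pandas 2.3.3, scanpy 1.11.5, leidenalg 0.10.2 and matplotlib 3.10.9 were used. The 1.5-fold call and the interval of the ratio were tested on simulated counts.

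The 10 genes, the marker lists and the related genes were chosen with earlier results of these data known. The limits of the gates and of the Fabp5 and Spp1 bins were settled after the data were seen. All 10 genes were named in every class, with 3 genes of most similar pattern each (at least 50 UMIs) and, per class, at most 5 related genes with the largest ratio past 1.5-fold (at least 100 UMIs). Some genes that this rule picks are not reported here. Alternatives covered unadjusted molecules, filters on genes, mitochondria and UMIs, a stricter gate, cluster majority, Xist or Y cells, doublets, mean over cells, equal subtype weights, centring and the thinning depth. Leaving out Rgs5-positive cells was added after the data were seen.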

Additional observations from a re-analysis of the deposited data

Results flagged for a closer look

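In ECs the log2 ratio of Mmp13, Dach1OE over Control, was -1.40 in Xist cells and 0.85 in Y cells, opposite directions in the pooled females and males, with -0.07 (-0.20 to 0.06) in all ECs. EC subtypes also differed in direction, Mmp13 being at 8.42 and 55.2 CPM in type R ECs (11 and 91 UMIs) and at 86.0 and 47.4 CPM in arterial ECs. All of these EC levels lie under the haematopoietic 182 and 108 CPM, which can hold both free RNA and true haematopoietic expression. Whether the EC levels are expression was not tested. The Mmp16 ratio was 0.73 in ECs and -0.64 in fibroblasts. Timp4 had a ratio of 2.01 in ECs and -1.65 in stroma. None of these differences was tested, since each group was 1 library.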

How the results depend on the processing

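No paired analysis was possible because each group was 1 library and no test was run, and no library could be left out. Of the values of single genes under the alternatives, 469 stayed within the counting interval, 162 moved beyond it and 5 that had been past the fold changed sign. Those 5 were the Mmp9 log2 ratio in ECs, at -0.042 by cluster majority and -0.31 in Xist cells, Mmp11 in stroma at 0.019 with equal subtype weights, Mmp16 in septoclasts at -0.10 in Xist cells, and Mmp9 in fibroblasts at -2.37 without Rgs5-positive cells. Of the 469, 48 came from dropping the low-count filter, which cannot change a ratio. The genes past the fold numbered 5 rather than 3 in ECs in Y cells and 1 rather than 3 in stroma with equal subtype weights. In septoclasts 1 rather than 2 passed with at least 1000 genes, the stricter gate, without Scrublet doublets, without Rgs5-positive cells and as a mean over cells. The highest class of each gene in each library, 20 values in all, was the same for 10 by cluster majority and for 9 in Y cells. No cluster had a septoclast majority, and Y cells held 14 Control septoclasts, under the minimum of 20 for a class, so neither alternative was given a septoclast class. By cluster majority Mmp9 was highest in stroma in Control (810 CPM) and in mural cells in Dach1OE (1269 CPM). Mmp11 was then highest in mural cells in both libraries, at 78.8 and 82.6 CPM. Mmp13 was highest in stroma, at 2363 and 1677 CPM, and Mmp14 in fibroblasts, at 814 and 801 CPM. The ratio of MMP to TIMP UMIs, septoclasts over stroma, was 5.45 under 10% mitochondrial UMIs and 5.27 with the stricter gate in Control, and 6.02 with the stricter gate and 5.01 without Rgs5-positive cells in Dach1OE. Depth limits Mmp16 and Timp4 in septoclasts, and the pooled animals limit every comparison between the libraries.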
